A study of Danio rerio with 36 samples.

Results

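GFP-positive cells sorted from zebrafish eyes at 120 hours post fertilization (hpf) were compared with GFP-positive cells sorted at 72hpf. The labels give these cells as Müller glia (MG), and they fill 6 of the 36 columns of the expression table, 3 labelled 120hpf and 3 labelled 72hpf. The comparison asks which transcripts differ over the days in which the glial cells elaborate their branches. All 6 columns come from Tg(GFAP:GFP) animals with the genotype given as control, and the tissue was dissociated retina taken from pooled whole eyes of animals kept in phenylthiourea to block pigment. The cells that did not carry GFP (C) were collected at the same ages and are given beside the MG values, with 3 columns at 120hpf and 3 at 72hpf. The gate rests on a gfap-driven transgene, so MG here means any eye cell bright enough in GFP, and whole eyes also hold lens, pigment epithelium, vessels and surface cells.

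MG are the radial glia of the retina, and each spans the tissue from an apical limiting membrane at the photoreceptors to basal endfeet at the vitreous. They clear glutamate and make glutamine, buffer potassium and water, store glycogen and take part in recycling of retinoids for cones. In zebrafish they derive from late progenitors under Notch signaling, keep several progenitor transcription factors and can re-enter the cell cycle after injury. Their shape is built through apical junctions, homotypic adhesion, contact with laminin-rich matrix and a cytoskeleton of actin, microtubules and intermediate filaments.

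The columns of a group were not independent libraries. Between columns of a group, in the 4 groups compared, squared differences in reads over genes were 0.0685 to 0.972 times what read sampling gives (median over genes), whereas they were 81.8 to 83.5 times that value between 120hpf MG and 72hpf MG columns. The third 48hpf MG column, which is not used in the comparison, differed from the 72hpf MG columns by no more than sampling (0.859 to 0.944). On this measure that column and the 72hpf MG columns could come from 1 library, although their labels give different ages. Which label holds cannot be told, and 72hpf is used here as labelled. The 3 columns of each group from 72 to 192hpf (ratios of at most 1.03) were therefore joined as 1 library by their mean and counted once, and the 48hpf and 60hpf columns, some of which differed by more, were not used. With 1 library per stage there is no replicate check and no test, and a difference between the libraries cannot be told apart from a difference between the stages. Values are read counts scaled to a library total of 1000000 (CPM), and a gene was called higher or lower at a difference of at least 2-fold. Values under 3 reads of the shallower library (0.448 CPM for MG) were set to that floor, and a fold against a gene at the floor is given as a lower bound. Intervals given with a log2 difference (120hpf minus 72hpf) are 95% Poisson intervals and cover counting error only. The spread and overlap of columns, where given, likewise reflect counting error at most and not differences between replicates.

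The 120hpf MG columns held 6689209 to 6921952 reads on genes and the 72hpf MG columns 8609278 to 8889893, with 15981 to 16032 genes detected at 120hpf and 17220 to 17243 at 72hpf. The C columns were shallower, with 2937683 to 3193717 reads at 120hpf and 3887654 to 3925590 at 72hpf. The 10 genes with the most reads took 24.0% of the 120hpf MG library and 16.8% of the 72hpf MG library. Summed over 80 ribosomal protein genes, the MG libraries held 4565, 18587, 3198 and 26056 CPM at 72, 96, 120 and 192hpf, so that on this measure the pair compared here lay together, below the 96hpf and 192hpf libraries.

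The 120hpf MG library resembled the 72hpf MG library more than any other from 72 to 192hpf, yet most genes stood at least 2-fold apart. Over 14755 genes above 5 CPM in at least 1 library, its rank correlation (Spearman) was 0.71 with 72hpf MG, 0.63 with 120hpf C, 0.49 with 192hpf MG and 0.48 with 96hpf MG. The 72hpf MG library was in turn closest to 72hpf C (0.74). These values run across genes, which share their length and the amplification step and are not replicates. Of 15870 genes above the floor in at least 1 of the MG libraries, 3568 were higher at 120hpf (22.5%), 5977 were lower (37.7%) and 6325 were within 2-fold (39.9%). The median difference was -0.40 on the log2 scale. A difference of at least 4-fold was reached by 1881 genes in the higher and 3410 in the lower direction, and of at least 16-fold by 522 and 785.

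**Figure D1:**
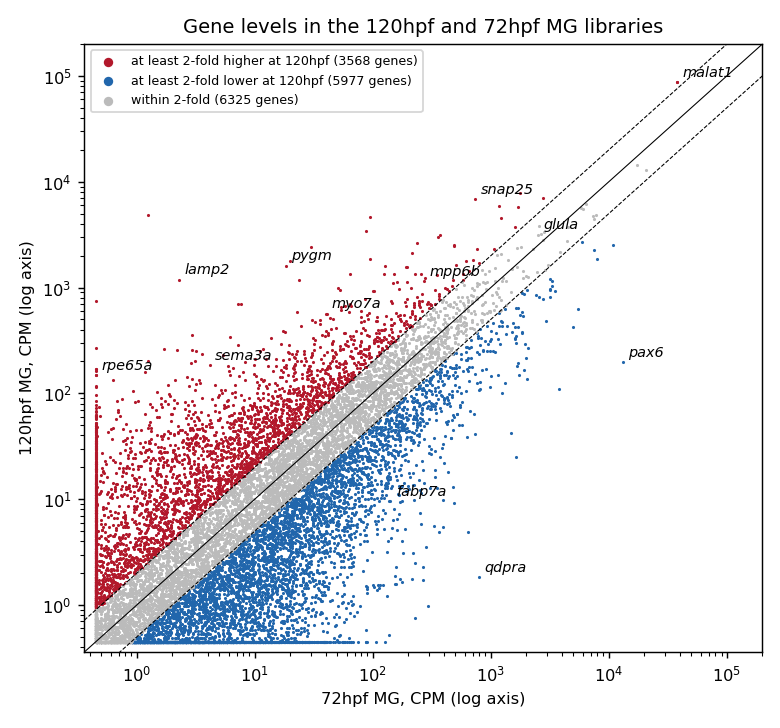
Each point is a gene, with its CPM in the 120hpf MG library on the vertical axis and in the 72hpf MG library on the horizontal axis (log axes, values under the floor drawn at it). The solid line marks equal values and the dashed lines 2-fold, and the 5977 genes below the lower dashed line outnumber the 3568 above the upper one, with pax6 far below and lamp2, pygm and rpe65a far above.

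The excess of lower genes was seen in every range of abundance, as the plot of all genes shows. Between 1 and 10 CPM on average, 23.0% of genes were higher and 48.4% lower at 120hpf, between 10 and 100 CPM 27.46% and 36.5%, and among 108 genes above 1000 CPM 24.1% and 34.3%. Of the lower genes, 1911 were at the floor in 120hpf MG, and of the higher genes 953 were at the floor in 72hpf MG. Among C cells the split ran the other way, with 4137 of 14975 genes higher at 120hpf (27.6%), 3231 lower (21.6%) and a median of 0.11. List counts in C given below are to be read beside these C shares. The split depended on scaling: for genes above the floor at both stages, TMM moved MG differences by 0.21 upward and C differences by -0.28. The higher share of MG calls was 37.4% as deposited, 42.8% with TMM and 47.6% after quantile normalization, and that of C calls was 56.1%, 45.7% and 48.5%. Of 2964 genes higher in 120hpf MG that also had a value in C, 1264 were higher and 368 lower in C. Of 5354 lower in 120hpf MG, 1627 were lower and 1067 higher in C.

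Müller glia markers did not move as a block. Of 34 gene IDs on the list, 27 had a value. At 120hpf 7 were higher and 8 lower, beside 22.5% and 37.7% of all genes. The median was 0.00 beside -0.40 over all genes. The counts were 9 higher and 6 lower after TMM scaling, and 5 and 5 with a floor of 10 reads. Glutamine synthetase, which makes glutamine from the glutamate that MG take up, was near level. Its gene glula had 3171, 3183 and 3128 CPM in the 120hpf MG columns, against 2531, 2526 and 2439 CPM in the 72hpf MG columns. The columns did not overlap, and the difference was 1.26-fold (log2 0.34, 0.31 to 0.37). In C cells glula had 1585 CPM at 120hpf and 383 CPM at 72hpf, so MG exceeded C at both stages.

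The glutamate transporter slc1a2, which removes glutamate from synapses, was lower at 120hpf under both gene IDs that carry its symbol. The ID ENSDARG00000102453 had 99.2, 99.0 and 103 CPM in the 120hpf MG columns, against 1231, 1235 and 1258 CPM in the 72hpf MG columns. This was 12.4-fold lower (log2 -3.63, -3.74 to -3.52). The other ID, ENSDARG00000052138, had 242 CPM at 120hpf and 502 CPM at 72hpf, 2.07-fold lower, and was within 2-fold after TMM scaling (log2 -0.84). The IDs share a symbol and may be separate paralogs. Reads of similar paralogs may be split between IDs, so the pair is uncertain gene by gene.

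Other markers were low or went either way. The retinoid carrier gene rlbp1a had 32.2 CPM at 120hpf and 37.6 CPM at 72hpf, whereas its paralog rlbp1b had 105, 107 and 105 CPM in the 120hpf MG columns, against 1.18, 1.11 and 0.501 CPM in the 72hpf MG columns. The rlbp1b value was 114-fold higher at 120hpf (log2 6.83, 5.83 to 7.83). At 72hpf rlbp1b was lower in MG than in C (0.929 and 17.9 CPM), as was the pigment epithelium gene rpe65a (0.144 and 12.1 CPM). At 96 and 192hpf the MG libraries held 10.5 and 16.8 CPM of rlbp1b, against 1174 and 746 CPM of rlbp1a. Whether the rlbp1b difference arose in glia or in other sorted cells was not tested. The water channel gene aqp4, placed on glial endfeet, was 2.44-fold higher (21.0 and 8.63 CPM), and apoeb, an apolipoprotein gene used by glia and microglia, 2.82-fold higher (39.3 and 13.95 CPM). The fatty acid binding protein gene fabp7a was 14.7-fold lower (9.57 and 141 CPM), and carbonic anhydrase cahz 5.04-fold lower (3.76 and 18.9 CPM). The gap junction gene cx43 was level, with 198 CPM at 120hpf and 194 CPM at 72hpf.

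The endogenous gfap transcript, from the gene whose promoter drives the sorted GFP, was close to the limit of detection at both stages. It had 0.869, 0.722 and 0.598 CPM in the 120hpf MG columns, against 2.12, 2.22 and 2.59 CPM in the 72hpf MG columns. The columns did not overlap and the value was 3.16-fold lower at 120hpf, but with a floor of 10 reads the gene was no longer called (log2 -0.63). In C cells gfap had 2.50 CPM at 120hpf and 0.170 CPM at 72hpf, so at 120hpf it was lower in MG than in C. Of the Müller glia list, 10 of 25 members exceeded their C level by 2-fold or more at 120hpf, beside 25.4% of all genes, and 10 of 27 at 72hpf, beside 29.2%. The list therefore separated the GFP-positive from the GFP-negative cells only in part, and the libraries are called MG here by their label. The genes vim, sox2, sox9, slc1a3 and kcnj10 were under 3 CPM in both MG libraries, and s100b and apoea were listed at 0.

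**Figure D2:**
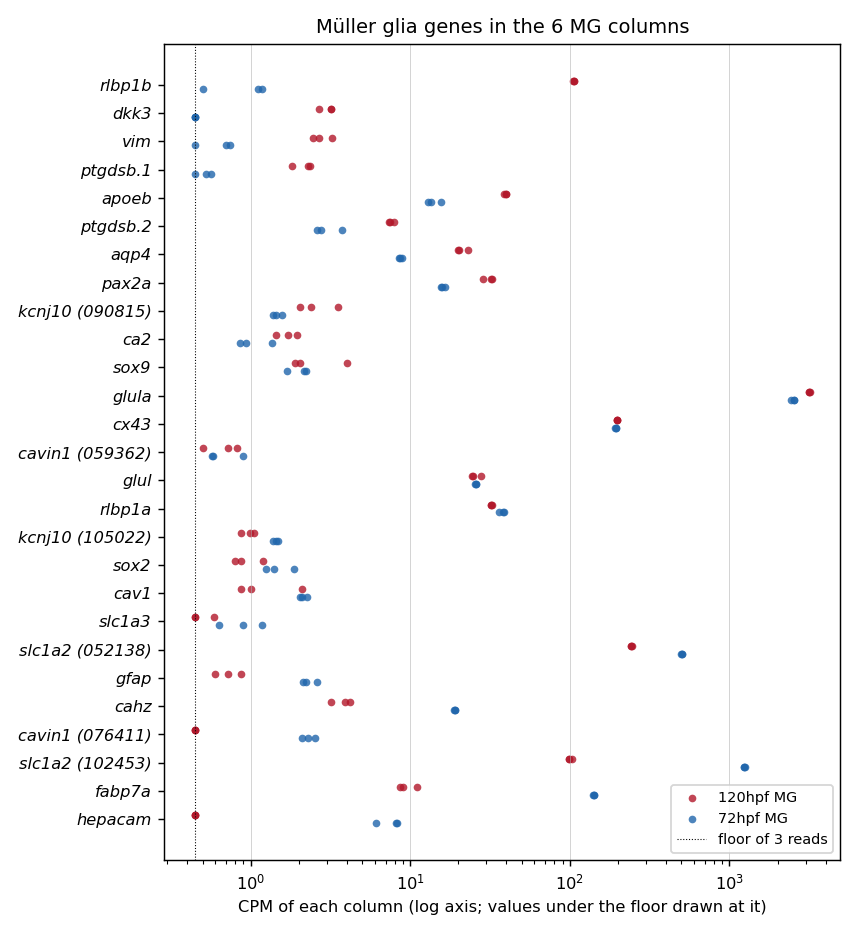
CPM of the 27 Müller glia genes with a value, 1 point per column (log axis), 120hpf MG above 72hpf MG in each pair of rows and the dotted line at the floor of 3 reads. Genes are ordered by their difference, with rlbp1b at 106 and 0.929 CPM at the top, glula and cx43 near level in the middle, and slc1a2 and fabp7a lower at 120hpf near the bottom; digits after a name are the end of its gene ID where paralogs share it.

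Markers of pigmented cells, the pigment epithelium and pigment cell list, were mostly higher in 120hpf MG than in 72hpf MG. Of 16 with a value, 13 were higher at 120hpf and 1 lower, beside 22.5% and 37.7% of all genes, with a median of 2.95. Their summed level was 1745 to 1751 CPM in the 120hpf MG columns, against 367 to 368 CPM in the 72hpf MG columns, and 68.7 to 74.3 CPM in 120hpf C, against 523 to 538 CPM in 72hpf C. Most reads of the sum were of oca2, a melanosome channel gene, with 1312 CPM in 120hpf MG and 350 CPM in 72hpf MG. The defining visual cycle gene of the pigment epithelium, rpe65a, had 148, 149 and 148 CPM in the 120hpf MG columns, against 0.0523, 0.165 and 0.214 CPM in the 72hpf MG columns. It was at the floor at 72hpf and thus at least 331-fold higher at 120hpf. The same held for rdh5, a retinol dehydrogenase gene (59.8 and 0 CPM, at least 133-fold), while the melanin synthesis gene dct had 24.96 and 0.597 CPM. The genes pmela, rgrb and lrat were listed at 0 in both. The summed level of the list did not follow age, with 367, 91.7, 1748 and 215 CPM in MG at 72, 96, 120 and 192hpf. The part of pigmented cells in the other differences was not tested. In bulk samples, fewer cells of a type and less RNA per cell cannot be told apart.

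Markers of neurons moved less uniformly. Of 43 photoreceptor genes with a value, 10 were higher and 18 lower in 120hpf MG, near the 22.5% and 37.7% of all genes (median -0.35 beside -0.40), whereas in C 25 of 40 were higher and 3 lower (median 1.99). Their sum was 6120 to 6172 CPM in 120hpf MG columns, against 9588 to 9619 CPM in 72hpf MG columns. The photoreceptor list also holds rpe65a, given above with the pigment epithelium, which counts among the higher members and in this sum. In MG, 31 of 41 exceeded C at least 2-fold at 72hpf, beside 29.2% of all genes. At 120hpf 10 of 41 did so, beside 25.4% of all genes. The cone disk protein gene prph2b had 193, 193 and 199 CPM in the 120hpf MG columns, against 1690, 1679 and 1706 CPM in the 72hpf MG columns, an 8.67-fold lower value. In contrast, pde6a, the rod phosphodiesterase gene, was 11.9-fold higher (515 and 43.3 CPM) and the ultraviolet opsin gene opn1sw1 8.58-fold higher (359 and 41.9 CPM). Rhodopsin (rho) was within 2-fold with 551 and 422 CPM, and the opsin genes opn1sw2, opn1lw1 and opn1lw2 were listed at 0. Of 34 inner retinal neuron genes, 5 were higher and 12 lower (median -0.06, and 0.23 after TMM scaling), with sums of 6504 to 6612 CPM at 120hpf and 7116 to 7146 CPM at 72hpf. The amacrine cell factor tfap2a was 6.97-fold lower (145 and 1008 CPM) and the G protein gene gnao1b was 18.1-fold lower (40.9 and 740 CPM), while gad2, which makes GABA, was 4.60-fold higher (140 and 30.5 CPM). Their part in the comparisons below was not tested.

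Lens and surface keratin genes added a further group. Of 27 lens and cornea members with a value, 10 were higher and 6 lower, beside 22.5% and 37.7% of all genes. The list summed to 578 to 589 CPM in 120hpf MG columns and 304 to 307 CPM in 72hpf MG columns. The surface epithelium genes krt5, krt91 and cdh1 had 43.7, 34.1 and 42.9 CPM in 120hpf MG, against 0.114, 0.130 and 2.57 CPM in 72hpf MG. The lens channel gene mipa ran the other way, with 13.5 CPM at 120hpf and 63.5 CPM at 72hpf.

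The largest differences between the libraries fell on genes of many kinds. Among named genes of at least 20 CPM, lamp2, which encodes a lysosome membrane protein, had the highest log2 difference. It had 1196, 1179 and 1164 CPM in the 120hpf MG columns, against 2.56, 2.39 and 1.84 CPM in the 72hpf MG columns. The columns were 522-fold apart (log2 9.03, 8.39 to 9.66), and lamp2 was higher in 120hpf C too (375 and 11.1 CPM). The fructose kinase gene khk (169 CPM), the activity-induced factor npas4 (161 CPM), the retinal reductase dhrs3 (150 CPM) and the actin-responsive coactivator mrtfa (118 CPM) were each at the floor at 72hpf and at least 263-fold higher. The retinol receptor stra6 (84.7 CPM at 120hpf) was at least 189-fold higher.

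At the other end stood qdpra, the dihydropteridine reductase that recycles the biopterin cofactor. It had 2.06, 1.77 and 1.68 CPM in the 120hpf MG columns, against 798, 793 and 801 CPM in the 72hpf MG columns. This 434-fold lower value (log2 -8.76, -9.56 to -7.96) had a smaller counterpart in C, with 138 CPM at 120hpf and 1263 CPM at 72hpf. The chaperone gene of the endoplasmic reticulum, hspa5, was at the floor at 120hpf and at least 239-fold lower than its 107 CPM at 72hpf, and the translation factor eif4g2 was 131-fold lower (4.92 and 646 CPM). The Golgi GTPase rab33b (0.759 and 227 CPM) and the mitotic kinesin kif2c, at the floor against 64.9 CPM, were among the 15 lowest.

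Counted in CPM rather than as a ratio, the largest gains were those of rarres3 and the long noncoding RNA malat1. For malat1 the values were 85873, 86313 and 87707 CPM in the 120hpf MG columns, against 37102, 37558 and 38350 CPM in the 72hpf MG columns, a 2.3-fold higher value. The gene rarres3 had nearly the same value in every column (86658 and 37682 CPM on average), so the 2 entries may share reads and each is uncertain. Further gains fell on midn (7824 and 1776 CPM), the calcium-binding protein gene efhd2 (7030 and 2783 CPM), the G protein subunit gene gnb1b (5948 and 1179 CPM), kidins220, a scaffold of neurotrophin receptors (3454 and 88.0 CPM), and lrrfip1a (4684 and 94.6 CPM). The largest loss was that of pax6, the eye field and progenitor factor (ENSDARG00000045936). It had 194, 191 and 204 CPM in the 120hpf MG columns, against 13193, 13146 and 12978 CPM in the 72hpf MG columns. The pax6 columns were 66.8-fold apart, and C cells showed the same direction with 485 CPM at 120hpf and 8146 CPM at 72hpf. Other losses were furin, a proprotein convertase gene (632 and 5447 CPM), the histone chaperone nap1l1 (421 and 4979 CPM), the translation helicase eif4a1a (111 and 3786 CPM) and impdh1b, a gene of GTP synthesis (2498 and 10883 CPM).

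Genes that the study knocked out with a significant effect on MG shape were called higher more often than lower at 120hpf. Of 43 listed symbols 40 were matched, to 41 gene IDs, and the unmatched ones are not covered. Of the 41 gene IDs, 35 had a value, 13 were higher and 6 lower, beside 22.5% and 37.7% of all genes. The median was 0.74 beside -0.40 over all genes. The other 6 gene IDs were under the floor at both stages. With a floor of 10 reads 11 were higher and 3 lower. The study chose these genes on these same samples, so their direction is not independent evidence. In C, 16 of 34 were higher and 5 lower at 120hpf (median 0.94 beside 0.11). In MG over C, 21 of 34 exceeded 2-fold at 120hpf, beside 25.4% of all genes, and 18 of 35 at 72hpf, beside 29.2%.

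The gene mpp6b, a scaffold of the membrane-associated guanylate kinase family, was higher at 120hpf. It had 1144, 1146 and 1154 CPM in the 120hpf MG columns, against 265, 267 and 276 CPM in the 72hpf MG columns. No column overlapped, the value was 4.26-fold higher (log2 2.09, 2.03 to 2.16), and in C it differed little (141 CPM at 120hpf and 123 CPM at 72hpf). The microtubule-binding navigator gene nav1b had 232, 231 and 223 CPM in the 120hpf MG columns, against 30.4, 31.9 and 29.3 CPM in the 72hpf MG columns. It was 7.48-fold higher (log2 2.90, 2.72 to 3.09), and higher in 120hpf C too (29.4 and 8.93 CPM). The laminin chain gene lamb4 had 75.6, 73.9 and 86.6 CPM in the 120hpf MG columns, against 1.38, 1.66 and 1.75 CPM in the 72hpf MG columns. This 49.3-fold higher value was matched in C, where lamb4 had 91.6 CPM at 120hpf and 1.33 CPM at 72hpf.

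The Cadm genes, which encode immunoglobulin-type adhesion molecules, did not move together. The paralog cadm1b had 311, 304 and 310 CPM in the 120hpf MG columns, against 148, 150 and 139 CPM in the 72hpf MG columns, 2.12-fold higher. Its companions cadm1a (357 and 194 CPM) and cadm4 (227 and 124 CPM) were 1.85-fold and 1.83-fold higher and passed 2-fold only after TMM scaling (log2 1.09 and 1.08), while cadm2b was at 28.0 and 39.7 CPM and cadm3, which is not a screen gene, was lower (84.7 and 195 CPM). In C, cadm1b had 9.43 CPM at 120hpf and 13.99 CPM at 72hpf. The photoreceptor cadherin gene cdhr1a was 2.04-fold higher (425 and 208 CPM), the large cadherin fat1b 7.40-fold (16.8 and 2.27 CPM), the sorting nexin snx19a 3.45-fold (56.9 and 16.5 CPM) and sox10, a factor of the neural crest and of myelinating glia, 3.25-fold (54.1 and 16.7 CPM). In C, cdhr1a (43.6 and 10.4 CPM) and sox10 (16.4 and 1.28 CPM) were higher at 120hpf too. There snx19a was within 2-fold and fat1b was lower (2.12 and 5.11 CPM). The higher members apcdd1l, itga5, icn2 and cacnb2a had at most 8.30 CPM in either MG library.

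The transcription factor pax2a, which also stands on the glial list, had 32.3, 32.1 and 28.4 CPM in the 120hpf MG columns, against 15.6, 15.8 and 16.5 CPM in the 72hpf MG columns. The columns did not overlap, but at 1.94-fold it was just short of the call and passed it after TMM scaling (log2 1.16) or without the third 120hpf column (log2 1.01). In C pax2a had 0.340 CPM at 120hpf and 38.1 CPM at 72hpf. Lower members were the matrix protease mmp28 (1.49 and 14.6 CPM, 9.79-fold), the synaptic vesicle gene sypb (32.5 and 135 CPM, 4.16-fold) and lamb2 (4.69 and 13.5 CPM, 2.88-fold), and mmp2, xirp1 and dcaf8 were lower with no more than 2.29 CPM in either library. The osmotic stress factor nfat5b (182 and 93.1 CPM), the motor gene myo6b (129 and 81.1 CPM), the microtubule protein map1ab (66.97 and 113 CPM) and nphs1 (15.5 and 16.4 CPM) were within 2-fold.

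**Figure D3:**
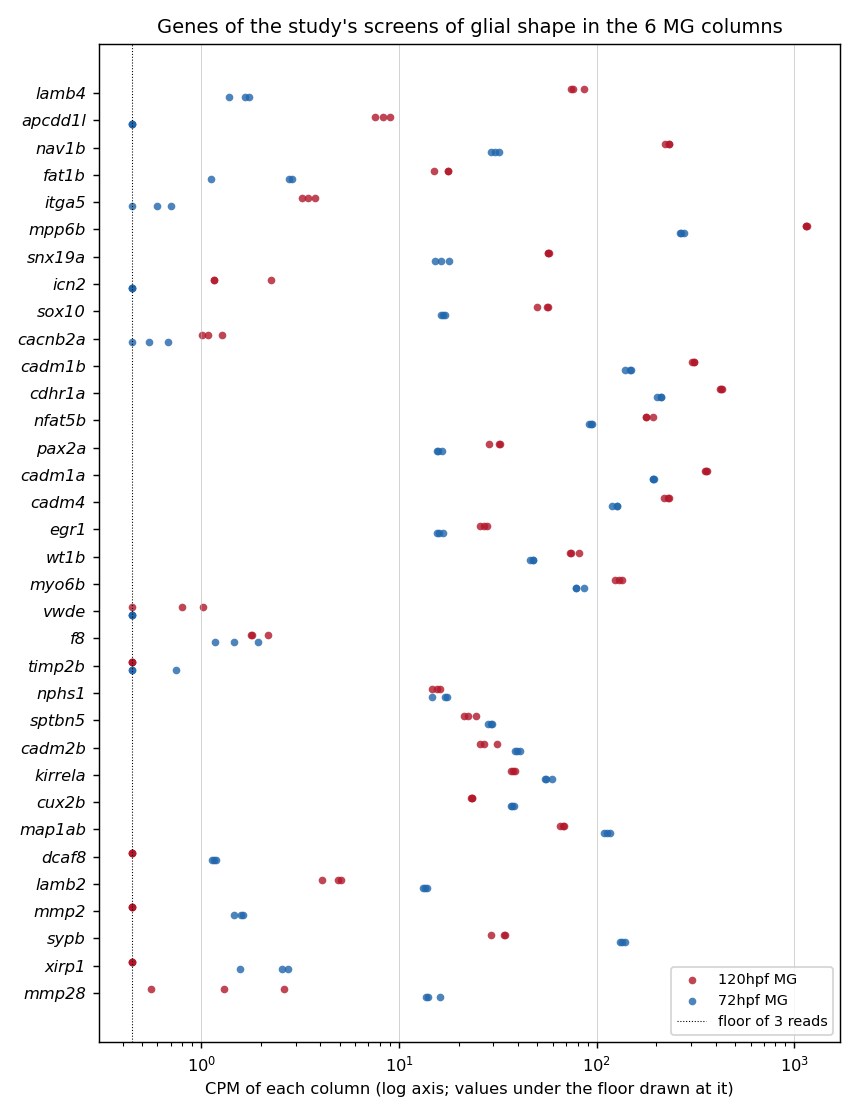
CPM of 34 screen genes with a value, 1 point per column (log axis), 120hpf MG above 72hpf MG for each gene, ordered by their difference, with the dotted line at the floor of 3 reads. The points of mpp6b (1148 and 269 CPM), nav1b (228 and 30.5 CPM) and lamb4 (78.7 and 1.60 CPM) are widely separated at the upper end, and those of sypb and mmp28 at the lower end.

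Genes of the apical junction and of cell polarity included strongly moving members in both directions. Of 36 with a value, 9 were higher at 120hpf and 11 lower (11 and 10 after TMM scaling), beside 22.5% and 37.7% of all genes. The median was -0.45, while in C 15 of 36 were higher and 5 lower (median 0.76). Besides mpp6b, the scaffold dlg1b had 1129, 1133 and 1148 CPM in the 120hpf MG columns, against 195, 197 and 194 CPM in the 72hpf MG columns. It was 5.82-fold higher with no overlap (log2 2.54, 2.47 to 2.62). The actin linker vinculin (vcl) was 12.7-fold higher (37.0 and 2.91 CPM), and the Crumbs gene crb3a, at the floor at 72hpf, at least 213-fold higher with 95.5 CPM at 120hpf. The Crumbs genes crb2a and crb2b, whose products sit on the apical membrane of retinal cells, were lower. The paralog crb2b had 16.9, 17.1 and 14.7 CPM in the 120hpf MG columns, against 143, 139 and 139 CPM in the 72hpf MG columns. It was 8.62-fold lower, crb2a 16.4-fold lower (1.35 and 22.1 CPM) and the junctional catenin ctnnb1 27.2-fold lower (5.33 and 145 CPM). The tight junction scaffold tjp1b was also lower (465 and 1043 CPM).

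Cell adhesion genes were split nearly evenly. Of 83 with a value, 23 were higher and 27 lower at 120hpf, beside 22.5% and 37.7% of all genes. The median was -0.04 beside -0.40 over all genes, and 0.17 after TMM scaling, with 29 higher and 21 lower. In C 16 of 87 were higher and 24 lower (median -0.42 beside 0.11). Among those higher was ncam1b, a homophilic neural adhesion molecule. It had 3014, 3003 and 3010 CPM in the 120hpf MG columns, against 359, 355 and 352 CPM in the 72hpf MG columns. The columns were 8.47-fold apart (log2 3.08, 3.03 to 3.14), and in C ncam1b was higher as well (597 and 199 CPM). The epithelial cadherin cdh1, named above with the surface keratins, was 16.7-fold higher, and the adhesion molecule flrt1, at the floor at 72hpf, at least 104-fold higher with 46.9 CPM at 120hpf. Lower members were cdh7 (14.2 and 270 CPM, 19.1-fold), the giant cadherin fat4 (11.1 and 164 CPM, 14.8-fold), nrcama (at the floor against 38.3 CPM) and lrrn1 (4.57 and 62.4 CPM, 13.7-fold).

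Matrix and integrin genes were called at shares near those of all genes in MG and were more often higher than lower in 120hpf C. Of 71 with a value, 16 were higher and 27 lower in 120hpf MG (median -0.43), close to the shares over all genes, whereas in C 41 of 73 were higher and 10 lower (median 1.24). In MG, the integrin subunit gene itgb8 was 25.1-fold higher (76.8 and 3.06 CPM), the basement membrane collagen col15a1b 11.5-fold higher (47.8 and 4.15 CPM) and an itgb1 ID (ENSDARG00000053232), at the floor at 72hpf, at least 26.6-fold higher with 11.9 CPM. Lower members were the proteoglycan gene spock1 (7.58 and 71.6 CPM, 9.45-fold), tenascin tnc (23.7 and 81.5 CPM, 3.44-fold) and the proteases mmp16 and mmp17. The screen's lamb4 and mmp28 belong to this list too.

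Among guidance ligands and receptors, 24 of 86 genes were higher and 31 lower in 120hpf MG, beside 22.5% and 37.7% of all genes. The median was -0.20 (0.01 after TMM scaling), and in C 28 of 88 were higher and 13 lower (median 0.31). Semaphorin 3 genes encode secreted guidance cues that often repel. The gene sema3a had 178, 180 and 192 CPM in the 120hpf MG columns, against 4.53, 4.06 and 3.81 CPM in the 72hpf MG columns. It was 44.4-fold higher (log2 5.47, 4.99 to 5.95), with 6.62 CPM in 120hpf C and 0.170 CPM in 72hpf C. In the same direction went sema3e (13.97 and 0.668 CPM), sema3gb (21.6 CPM against the floor), the netrin gene ntn4 (47.6 and 0.456 CPM) and the Eph receptor epha4 (ENSDARG00000054454, 22.8 and 0.534 CPM). Lower members were sema3b (0.613 and 16.7 CPM), the ephrin efna5 (1.54 and 26.5 CPM) and the semaphorin effectors dpysl3 (1.23 and 37.3 CPM) and dpysl5a (4.68 and 77.6 CPM). The Slit receptor gene robo1 had 10.6, 11.7 and 13.3 CPM in the 120hpf MG columns, against 192, 192 and 188 CPM in the 72hpf MG columns, 16.1-fold lower with no overlap.

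The cytoskeletal and process outgrowth list was the largest, with 22 of 134 genes higher and 50 lower at 120hpf, beside 22.5% and 37.7% of all genes (median -0.45 beside -0.40). In C there were 40 of 136 higher and 34 lower (median -0.04). The motor gene myo7a had 559, 554 and 580 CPM in the 120hpf MG columns, against 40.3, 39.0 and 41.3 CPM in the 72hpf MG columns. It was 14.02-fold higher (log2 3.81, 3.65 to 3.97), and the nonmuscle myosin gene myh9 (ENSDARG00000063295) was 118-fold higher (88.0 and 0.746 CPM). The intermediate filament gene synm was 12.7-fold higher (21.2 and 1.67 CPM), waslb, an activator of branched actin, 5.61-fold (40.5 and 7.21 CPM), and nav1b is named above. Lower members were marcksb, a membrane-actin linker used in neurite growth (29.9 and 314 CPM, 10.5-fold), the actin crosslinker actn1 (5.65 and 68.5 CPM, 12.1-fold), the microtubule genes maptb (7.97 and 93.0 CPM, 11.7-fold), mapre2 (1.68 and 25.7 CPM, 15.4-fold) and stmn4 (1.36 and 15.02 CPM), and the monomer-binding profilin pfn2b (2274 and 7507 CPM, 3.30-fold).

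**Figure D4:**
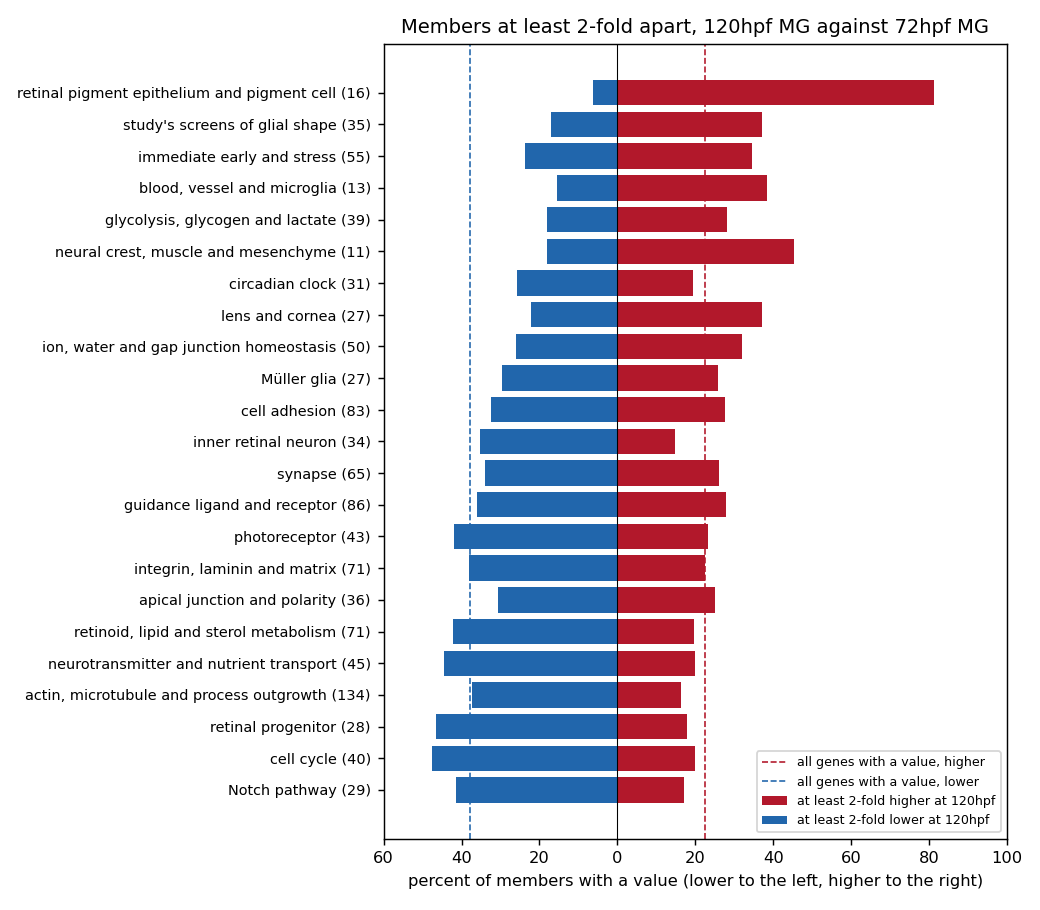
Share of each list's members with a value that were at least 2-fold higher (right) or lower (left) in 120hpf MG than in 72hpf MG, ordered by median difference from highest to lowest, with the number of members with a value in brackets and dashed lines at 22.5% and 37.7%, the shares over all genes. The pigment list (13 higher and 1 lower of 16) reaches farthest to the right, and the retinal progenitor, cell cycle and Notch lists are at the bottom.

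Transporters of neurotransmitters and nutrients were called at shares near those of all genes in MG. Of 45 with a value, 9 were higher and 20 lower, beside 22.5% and 37.7% of all genes (median -0.45 beside -0.40), whereas in C 19 of 45 were higher and 4 lower (median 0.85). Beside slc1a2, the cystine-glutamate exchanger slc7a11 had 147, 146 and 151 CPM in the 120hpf MG columns, against 1741, 1750 and 1729 CPM in the 72hpf MG columns. It was 11.8-fold lower (log2 -3.56, -3.65 to -3.46), and in C it was far higher at 120hpf (1048 and 44.6 CPM). Creatine transporter slc6a8 (3.27 and 39.9 CPM) and the amino acid transporter subunit slc3a2 (3.42 and 31.3 CPM) were lower too. The glucose transporter genes slc2a1a and slc2a1b were higher. The paralog slc2a1b had 137, 137 and 136 CPM in the 120hpf MG columns, against 9.94, 10.6 and 13.2 CPM in the 72hpf MG columns. It was 12.2-fold higher (log2 3.60, 3.30 to 3.90), slc2a1a 9.25-fold (25.2 and 2.72 CPM) and the glutamine transporter slc38a5b 49.7-fold (94.4 and 1.90 CPM).

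Glycolysis and glycogen genes moved in both directions. Of 39 with a value, 11 were higher and 7 lower, beside 22.5% and 37.7% of all genes (median 0.29 beside -0.40), and in C 13 of 37 were higher and 4 lower (median 0.48 beside 0.11). The summed level of the list was 5438 to 5467 CPM in the 120hpf MG columns, against 1593 to 1609 CPM in the 72hpf MG columns. Glycogen phosphorylase (pygm), which releases glucose from glycogen, had 1605, 1594 and 1615 CPM in the 120hpf MG columns, against 17.8, 17.98 and 19.2 CPM in the 72hpf MG columns. The columns were 87.5-fold apart (log2 6.45, 6.23 to 6.68), and C was higher at 120hpf too (488 and 29.2 CPM). The lactate dehydrogenase gene ldhba had 1356, 1348 and 1355 CPM in the 120hpf MG columns, against 151, 150 and 153 CPM in the 72hpf MG columns, 8.94-fold higher. The phosphoglucomutase pgm1 (61.8 and 4.03 CPM), the glycolytic isomerase gpia (354 and 89.7 CPM) and the gluconeogenic fbp1a (281 and 61.8 CPM) were higher. The glycolysis genes pfkp (2.05 and 39.4 CPM), hk2 (2.55 and 15.5 CPM), tpi1 (ENSDARG00000025012, 1.02 and 10.9 CPM), pgam1a (44.7 and 165 CPM) and eno2 (11.3 and 55.4 CPM) were lower.

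Of 50 ion, water and gap junction genes, 16 were higher and 13 lower, beside 22.5% and 37.7% of all genes (median 0.12). In C 20 of 49 were higher and 7 lower (median 0.42). Higher were the bicarbonate transporters slc4a5, at the floor at 72hpf and at least 56.9-fold higher with 25.5 CPM, and slc4a2 (43.9 and 6.50 CPM), the chloride cotransporter slc12a4 (43.7 and 7.50 CPM), atp1b4 (151 and 25.2 CPM) and aqp4. The connexin gene gjc4b had 0.580, 0.722 and 0.897 CPM in the 120hpf MG columns, against 59.2, 58.6 and 60.6 CPM in the 72hpf MG columns. It was 81.1-fold lower, and in C it had 15.9 CPM at 120hpf and 76.1 CPM at 72hpf. The chloride channel ano1 (1.57 and 36.9 CPM), the volume-regulated channel subunit lrrc8a (3.87 and 31.1 CPM) and aqp11 (0.585 and 11.8 CPM) were lower.

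Retinoid, lipid and sterol genes had 14 higher and 30 lower of 71, near the 22.5% and 37.7% of all genes (median -0.45 beside -0.40), and 31 higher and 13 lower of 76 in C (median 0.66). The higher members with the largest differences were retinoid genes: dhrs3, stra6, rdh5 and rlbp1b, given above, and the opsin-like rgr (64.8 and 7.50 CPM, 8.65-fold), of which stra6, rdh5 and rgr also stand on the pigment list, whose sum was 1745 to 1751 CPM at 120hpf and 367 to 368 CPM at 72hpf. Among the lower members were lipid genes, with the sterol synthesis gene sqle (0.610 and 10.8 CPM, 17.7-fold), the fatty acid oxidation gene acadvl (5.78 and 60.9 CPM, 10.5-fold), acsl4a (1.26 and 13.9 CPM) and fabp7a.

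Progenitor, Notch and cell cycle genes had the lowest medians of all lists. Of 28 retinal progenitor genes, 5 were higher and 13 lower in 120hpf MG, beside 22.5% and 37.7% of all genes (median -0.84). In C 5 of 32 were higher and 12 lower, beside 27.6% and 21.6% of all genes (median -0.65). Beside pax6, the progenitor factor foxn4 had 0.290, 0.289 and 1.35 CPM in the 120hpf MG columns, against 47.9, 46.0 and 52.2 CPM in the 72hpf MG columns, 75.9-fold lower, whereas in C it had 352 CPM at 120hpf and 171 CPM at 72hpf. The factors sox4a (1.64 and 25.8 CPM) and six6b (1.87 and 12.4 CPM) were lower as well. The retinal homeobox genes did not move together. The gene rx2 had 998, 995 and 992 CPM in the 120hpf MG columns, against 210, 213 and 212 CPM in the 72hpf MG columns. It was 4.70-fold higher (log2 2.23, 2.16 to 2.31), rx3 was 15.6-fold higher (15.5 and 0.992 CPM) and rx1 6.71-fold lower (13.2 and 88.6 CPM).

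In the Notch pathway, 5 of 29 genes were higher and 12 lower, beside 22.5% and 37.7% of all genes (median -0.93). With a floor of 10 reads 7 were lower. In C 7 of 30 were higher and 6 lower, beside 27.6% and 21.6% of all genes (median 0.21). Receptor and ligand genes were among those higher. The notch1 ID ENSDARG00000103554 had 262, 267 and 262 CPM in the 120hpf MG columns, against 83.7, 87.1 and 83.8 CPM in the 72hpf MG columns, 3.11-fold higher, and in C 279 CPM at 120hpf and 34.3 CPM at 72hpf. The ligand jag1b was 4.49-fold higher (18.5 and 4.12 CPM) and jag2a, at the floor at 72hpf, at least 34.9-fold higher with 15.6 CPM. The DNA-binding effector rbpj (8.37 and 59.2 CPM, 7.07-fold), its coactivator maml1 (17.0 and 73.0 CPM, 4.3-fold) and the Notch inhibitor numb (3.81 and 46.4 CPM, 12.2-fold) were lower.

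Of 40 cell cycle genes with a value, 8 were higher and 19 lower in MG, beside 22.5% and 37.7% of all genes (median -0.89). In C 13 of 43 were higher and 6 lower, beside 27.6% and 21.6% of all genes (median 0.21). Their sum was 492 to 495 CPM in the 120hpf MG columns, against 1006 to 1010 CPM in the 72hpf MG columns. The mitotic checkpoint kinase bub1 had 0.880, 2.43 and 1.301 CPM in the 120hpf MG columns, against 112, 115 and 117 CPM in the 72hpf MG columns. It was 74.7-fold lower (log2 -6.22, -7.10 to -5.35), and the anaphase activator cdc20, the spindle motor kif11 and the replication factor mcm10 were each at the floor at 120hpf, with 31.73, 23.5 and 14.6 CPM at 72hpf. The list was not lower throughout: the S phase cyclin ccne2, at the floor at 72hpf, had 37.6 CPM at 120hpf, the chromatin assembly gene chaf1a was 12.6-fold higher (26.6 and 2.11 CPM) and the G1 cyclin ccnd2 (ENSDARG00000051748) 2.40-fold higher (52.8 and 22.0 CPM).

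The summed level of synaptic genes was higher in 120hpf MG, mostly through snap25, while members were called at shares near those of all genes. The sum was 17991 to 18093 CPM in the 120hpf MG columns, against 10308 to 10329 CPM in the 72hpf MG columns, and 4613 to 4670 CPM in 120hpf C, against 8138 to 8174 CPM in 72hpf C. By count, 17 of 65 were higher and 22 lower, beside 22.5% and 37.7% of all genes (median -0.14, and 0.07 after TMM scaling). The vesicle fusion gene snap25 (ENSDARG00000058117) had 6877, 6827 and 6753 CPM in the 120hpf MG columns, against 745, 740 and 737 CPM in the 72hpf MG columns. It was 9.21-fold higher (log2 3.20, 3.17 to 3.24), with 381 CPM in 120hpf C and 505 CPM in 72hpf C. The snap25 gain of 6079 CPM made up most of the rise of the MG list sum from 10322 to 18040 CPM. The IDs that carry the symbol slc17a7, a vesicular glutamate transporter, may be separate paralogs and moved in opposite directions. The values were 490 and 30.4 CPM for ENSDARG00000016480 and 6.14 and 39.3 CPM for ENSDARG00000090106. The calcium sensor syt2 had 3.61, 2.96 and 3.99 CPM in the 120hpf MG columns, against 281 CPM in each 72hpf MG column. It was 79.9-fold lower, and the complexin cplx4c (26.3 and 163 CPM, 6.21-fold) and sypb were lower too.

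The 96hpf MG library, although between the stages in age, lay between them for a minority of the called genes. Its rank correlation was 0.94 with 192hpf MG, 0.61 with 72hpf MG and 0.48 with 120hpf MG, so likeness did not follow age. Differences of library and of age cannot be told apart in the courses given here. Of the 3568 genes higher at 120hpf, the 96hpf value was between the 72hpf and 120hpf values for 1515 (42.5%), below both for 1225 (34.3%) and above both for 828 (23.2%). Of the 5977 lower genes, it was between for 2180 (36.5%), above both for 2792 (46.7%) and below both for 1005 (16.8%). At 192hpf, 2530 of the higher genes (70.9%) but 2969 of the lower genes (49.7%) were on the same side of the 72hpf value as at 120hpf. The genes were selected on that same 72hpf value, and 953 of the higher genes were at the floor there. Part of this agreement is thus built in. No share over all genes was computed, so these shares do not measure how long a difference lasts. Glial genes were among the called genes that left the range at 96hpf. At 72, 96, 120 and 192hpf, fabp7a had 141, 7561, 9.57 and 2305 CPM and slc1a2 (ENSDARG00000102453) 1241, 6372, 100 and 2769 CPM. The gene rlbp1a had 37.6, 1174, 32.2 and 746 CPM. The second glutamine synthetase ID, glul ENSDARG00000100003, had 25.6, 3550, 25.6 and 2512 CPM. Both rlbp1a and this glul ID were within 2-fold between 72 and 120hpf and are not among the called genes. With values that close, almost any 96hpf value lies outside the range. Summed over the Müller glia list, the MG libraries held 4726, 28513, 3997 and 22738 CPM at these stages, and over the photoreceptor list 9604, 293795, 6140 and 178736 CPM. The part of photoreceptor RNA in the 96hpf and 192hpf values was not tested. Conversely, mpp6b (269, 127, 1148 and 222 CPM) and nav1b (30.5, 5.37, 228 and 10.02 CPM) were highest at 120hpf, while snap25 was at 740, 2134, 6819 and 2566 CPM and pax6 at 13106, 432, 196 and 545 CPM.

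**Figure D5:**
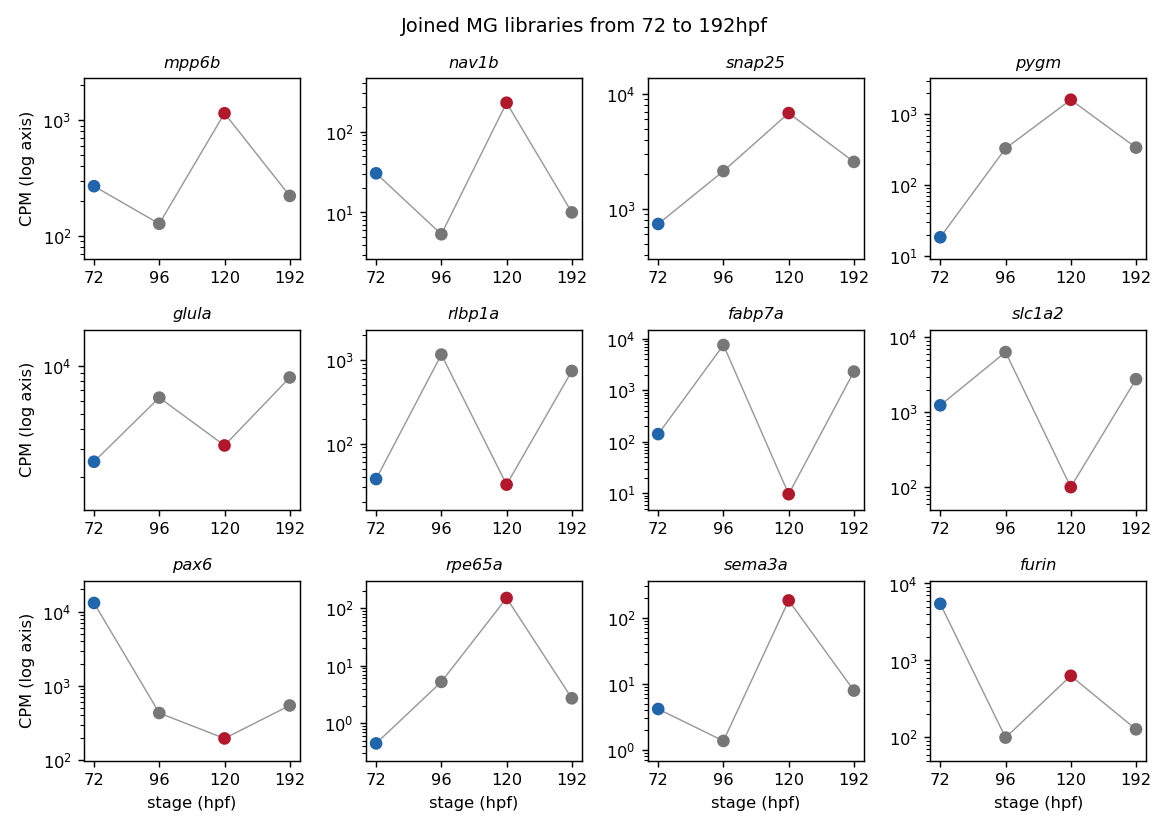
CPM (log axis) of selected named genes in the joined MG libraries at 72, 96, 120 and 192hpf, with 72hpf in blue and 120hpf in red; slc1a2 is ENSDARG00000102453, and values under the floor are drawn at it. Values at 96hpf lie outside the 72 to 120hpf range for mpp6b, nav1b, glula, rlbp1a, fabp7a, slc1a2, sema3a and furin, and inside it for snap25, pygm, pax6 and rpe65a. Of these, glula and rlbp1a were within 2-fold between 72 and 120hpf.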

How the data were processed

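RNA of GFP-positive (MG) and GFP-negative (C) eye cells was amplified with the Ovation kit and made into Nextera libraries. Per the submitters' processing notes reads were trimmed with Trimmomatic and aligned with HISAT2 to GRCz10. The study's methods name Zv9 and featureCounts, and the conflict of builds could not be settled, so no coordinates are given. The authors deposited log2 CPM per gene, and the values fit counts plus a prior of 0.25 reads scaled to library size, without TMM. Reads per gene were recovered from them. They fall on steps of 0.01 read, and 45.3% of values under 5.5 reads were whole (within 0.01), so no count tool was used.

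Groups followed the labels. The columns of each group from 72 to 192hpf, which differed by no more than 1.1 times read sampling over genes with at least 20 reads in a pair, were joined by mean CPM. The call rule, floor and intervals are given with the results. As alternatives, TMM scaling, quantile normalization, a floor of 10 reads, no floor, a 4-fold threshold, each column left out, and limma 3.58.1 (R 4.3.3) on columns without and with a replicate block were computed (Python 3.11.15, numpy 2.4.6, pandas 2.3.3, scipy 1.17.1, matplotlib 3.10.9), and the code was tested on simulated data.

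Symbols came from the RefSeq and Ensembl name tables and, for some paralogs, from gene names in the study's supplementary sheets, and 20283 of 31540 gene IDs had one. Sequences were not used here, and the values of 2 list members counted in the list totals are not reported here. The comparison, the 23 gene lists and the call rule were chosen with earlier results of these data known. Named genes were the 15 highest and 15 lowest log2 differences of named genes with at least 20 CPM, the 10 largest gains and losses in CPM, up to 5 called members per list and direction with at least 10 CPM, and all members of the Müller glia and screen lists. The genes oca2, rho, tjp1b, rgrb, pmela, lrat, opn1sw2, opn1lw1, opn1lw2 and cadm3 were added after their values were seen. The libraries cannot be assigned to separate animals, and reads carried no molecular identifiers.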

Additional observations from a re-analysis of the deposited data

Results flagged for a closer look

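Of 256 named genes with a value in both fractions, 42 were at least 2-fold apart in opposite directions in MG and C, with no overlap of the columns in either, 29 of them lower in MG and higher in C and 13 the other way. The count was 40 with TMM scaling. Most named genes were picked for large MG differences, so 42 of 256 is not a rate over genes. Of all 13585 genes with both values, 1067 were lower in MG and higher in C and 368 the other way. That count set no condition on the columns. Among the 15 highest and 15 lowest log2 differences and the 10 largest gains and losses in CPM, 2 genes were among the 42. The pseudokinase gene scyl3 had 0.217, 0.217 and 0 CPM in the 120hpf MG columns, against 127, 127 and 128 CPM in the 72hpf MG columns (log2 -8.15), whereas in C it was higher at 120hpf, with 73.9 and 16.2 CPM (log2 2.19). The cell cycle transcription factor gene e2f3 had 0.435, 0.722 and 0.389 CPM in the 120hpf MG columns, against 136, 136 and 140 CPM in the 72hpf MG columns (log2 -8.06), and in C it had 783 CPM at 120hpf and 90.3 CPM at 72hpf (log2 3.12). The difference between the fractions was not tested, since each fraction and stage is 1 library.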

How the results depend on the processing

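The counts of called genes stayed within 1.5 times under every alternative but the 4-fold threshold, which by construction calls fewer: 1881 higher and 3410 lower in MG, 1857 and 1111 in C. TMM scaling gave 4000 higher and 5350 lower in MG and 3504 and 4157 in C, quantile normalization 4206 and 4634 in MG and 4009 and 4249 in C, and a floor of 10 reads 2806 and 4547 in MG and 2839 and 2256 in C. Leaving out each column gave 3556 to 3600 higher and 5968 to 6034 lower in MG, and 4117 to 4213 and 3220 to 3289 in C. Limma on the columns, which compares libraries and not stages, gave 3354 and 5660 in MG and 4503 and 3519 in C, and with a replicate block 3355 and 5662 in MG and 4486 and 3499 in C. Deviations of same-numbered columns of 120hpf and 72hpf correlated at -0.05, -0.09 and 0.02 in MG, so the numbers were not taken as pairs. Without a floor the counts were 3359 and 5678 in MG and 4566 and 3597 in C.

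None of the named genes called at 2-fold reversed under TMM scaling, a floor of 10 reads or leaving out a column. These alternatives could hardly reverse a call, so this is no check of direction. TMM moved MG differences by at most about 0.21, a higher floor only shrinks a difference, and the columns of a group are 1 library. With TMM, pax2a, cadm1a, cadm4, nfat5b and kcnj10 (ENSDARG00000090815) reached 2-fold, and slc1a2 (ENSDARG00000052138) and slc1a3 fell short of it. With a floor of 10 reads vim, ptgdsb.1, gfap, mmp2, xirp1, icn2 and cavin1 were no longer called. Leaving out the third 72hpf MG column put cacnb2a short of 2-fold (log2 0.88), and leaving out the third 120hpf MG column did so for slc1a3 (log2 -0.92) and brought vwde (log2 1.06), cav1 (log2 -1.18) and pax2a (log2 1.01) past it. Without the first 120hpf MG column kcnj10 (ENSDARG00000090815) reached 2-fold (log2 1.004). Depth limits genes near 3 reads, where neither fold nor absence can be read.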

Other observations

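Immediate early and stress genes, which respond to cell handling as well as to activity, did not move one way. Of 55 with a value, 19 were higher and 13 lower in 120hpf MG, beside 22.5% and 37.7% of all genes. The counts were 11 and 9 with a floor of 10 reads, and the median was 0.49 beside -0.40 over all genes. In C 24 of 60 were higher and 10 lower. Their summed level was 1372 to 1387 CPM in the 120hpf MG columns, against 1981 to 2012 CPM in the 72hpf MG columns, so it was lower at 120hpf while the median was higher. The stress response factor gene atf4a was lower, with 153 CPM at 120hpf and 738 CPM at 72hpf, as was xbp1 with 61.4 and 177 CPM. The immediate early genes nr4a1 (0.780 and 29.9 CPM) and fosb (3.99 and 38.6 CPM) were lower, whereas npas4, nr4a3 (25.5 and 6.76 CPM), the phosphatase dusp1 (23.4 and 2.40 CPM), the glucocorticoid-induced fkbp5 (27.3 and 0.507 CPM) and the cochaperone dnajb1a (61.0 and 8.67 CPM) were higher. The gene xbp1 was named after its values were seen.

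Circadian clock genes were called less often than genes as a whole and without a common direction. The labels give no clock time of collection. Of 31 with a value, 6 were higher and 8 lower in 120hpf MG, beside 22.5% and 37.7% of all genes (median 0.16). Within 2-fold were 17, beside 39.9% of all genes. In C 9 of 30 were higher and 4 lower (median 0.43). The repressor gene cry2 was 2.26-fold higher (966 and 427 CPM), and the output factors dbpb (546 and 171 CPM), hlfa (680 and 245 CPM) and bhlhe41 (33.5 and 7.15 CPM) were higher as well. The gene cry3a was 3.52-fold lower (329 and 1158 CPM), as were npas2 (7.55 and 37.7 CPM), dbpa (12.0 and 61.6 CPM) and nfil3-5 (17.9 and 98.4 CPM), and bmal2 was at the floor at 120hpf against 38.8 CPM at 72hpf.

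Genes of vessels, crest and connective tissue were few. Of 13 blood, vessel and microglia genes with a value 5 were higher and 2 lower (3 and 1 with a floor of 10 reads), beside 22.5% and 37.7% of all genes. Their sums were 91.9 to 94.4 CPM at 120hpf and 34.7 to 36.1 CPM at 72hpf. Much of these sums came from apoeb, which also stands on the Müller glia list (39.3 and 13.95 CPM), and from the endothelial cadherin cdh5 (38.3 and 10.9 CPM). Of 11 neural crest, muscle and mesenchyme genes with a value, 5 were higher and 2 lower, beside 22.5% and 37.7% of all genes. The other 20 of the 31 gene IDs were at the floor in both MG libraries. This list summed to 320 to 324 CPM at 120hpf and 67.7 to 68.7 CPM at 72hpf. Most reads of that sum were of the matrix gene postn, which had 194, 191 and 201 CPM in the 120hpf MG columns, against 2.90, 2.73 and 2.92 CPM in the 72hpf MG columns. It was 68.5-fold higher, and in C postn had 536 CPM at 120hpf and 102 CPM at 72hpf.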
